A study of Homo sapiens with 35 samples.

Results

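The transcriptome of RPMI-8226 cells 10 days after a carfilzomib pulse was compared with that of the same cells on day 0. RPMI-8226 is an established line of human multiple myeloma, a malignancy of plasma cells, and carfilzomib blocks the proteasome, the particle that degrades ubiquitinated proteins. Cells were exposed to 750 nM carfilzomib for 1 h, washed and kept in fresh medium, and total RNA was sequenced on days 0, 1, 2, 4, 6, 8 and 10. The 10 libraries labelled Day 0 (5) or Day 10 (5) were taken from the 35 of the series, and the 5 libraries of day 8 and the means of the other days served to place the day 10 values in time.

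The labels list the pulse for day 0 as well, whereas the study's methods have cells of day 0 collected ahead of the pulse, so day 0 is treated here as the untreated state. All subcultures were split from 1 expanded culture 2 days before the pulse, as the study's methods have it, whereas a legend of the study calls the same values independent experiments, so whether the spread over the 5 libraries of a day holds variation between experiments is not clear from the sources. Day 0 cells had been diluted into fresh medium and left to equilibrate, whereas day 10 cells were collected just before a medium change, after 10 days with medium changes 48 h apart. Cultures were brought back to a set density late in this period (days 6 and 8). No untreated culture was carried to day 10, so effects of carfilzomib, of time in culture and of the state of the medium cannot be told apart in any of the differences given here. In bulk RNA, loss of some cells and a lower level per cell cannot be told apart either.

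Background to the gene groups is as follows. The transcription factor p53 is stabilized by damage and other stress and drives transcripts for growth arrest and apoptosis, among them that of MDM2, the ubiquitin ligase that degrades p53. Immediate-early genes such as FOS and EGR1 are transcribed within minutes of a stimulus without new protein synthesis, and their messages are short-lived. ATF4 is translated when kinases such as GCN2 and PERK phosphorylate eIF2α, and its targets supply amino acids, transporters and aminoacyl-tRNA synthetases. Plasma cells carry a large load of secretory protein, which makes them depend on the proteasome and on chaperones of the endoplasmic reticulum (ER).

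The 10 libraries held 6641766 to 9400769 counts, and values are given as CPM, the TMM-scaled protein-coding counts brought to a common library size, with errors as SD over 5 libraries unless marked SE. Where the 10 values of a gene are listed, they run from replicate 1 to 5 of each day, and “without overlap” means that every library of one day lay above every library of the other. Of 17999 protein-coding entries that had counts somewhere in the series, 433 (2.41%) were deregulated upward on day 10 and 634 (3.52%) downward, with a false discovery rate Q of at most 0.05 and an absolute log2 fold change above 1. At Q of at most 0.05 alone, the rule used below to count members of gene lists, 2895 entries (16.1%) were higher and 2850 (15.8%) lower, and the median log2 fold change over all entries was −0.02. The share of deregulated entries was largest between 1 and 10 CPM. They made up 3.26% of the 5455 entries below 1 CPM on both days, 14.3% of the 3319 entries with 1 to 10 CPM on the higher day, 4.75% of the 7080 with 10 to 100 CPM and 3.73% of the 2145 above that. Among the last, 16 rose and 64 fell, and over all deregulated entries the losses summed to 21548 CPM and the gains to 7509 CPM.

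**Figure D1:**
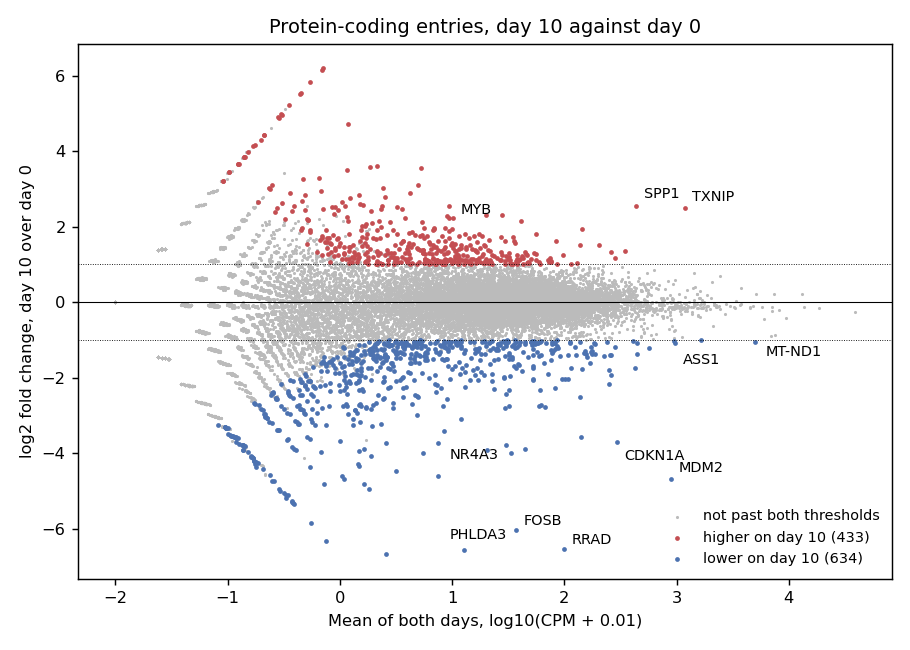
Log2 fold change of day 10 over day 0 (vertical axis) against the mean level of both days as log10(CPM + 0.01) (horizontal axis) for 17999 protein-coding entries. Red and blue mark the 433 entries higher and 634 lower on day 10, dotted lines the fold cutoff. MDM2, CDKN1A and RRAD lie far below the cloud at high level, whereas TXNIP and SPP1 lie farthest above it among those with over 100 CPM.

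The libraries of the 2 days did not overlap for 335 of the 433 rises and 464 of the 634 falls, beside 11.3% of all entries with every day 10 library above every day 0 library and 11.5% with every one below. In 56 of the falls the day 10 libraries held no count at all, and in 26 of the rises the day 0 libraries held none. The 12 largest falls and 11 of the 12 largest rises among transcripts of at least 10 CPM on the higher day without overlap are taken up with their groups below.

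**Figure D2:**
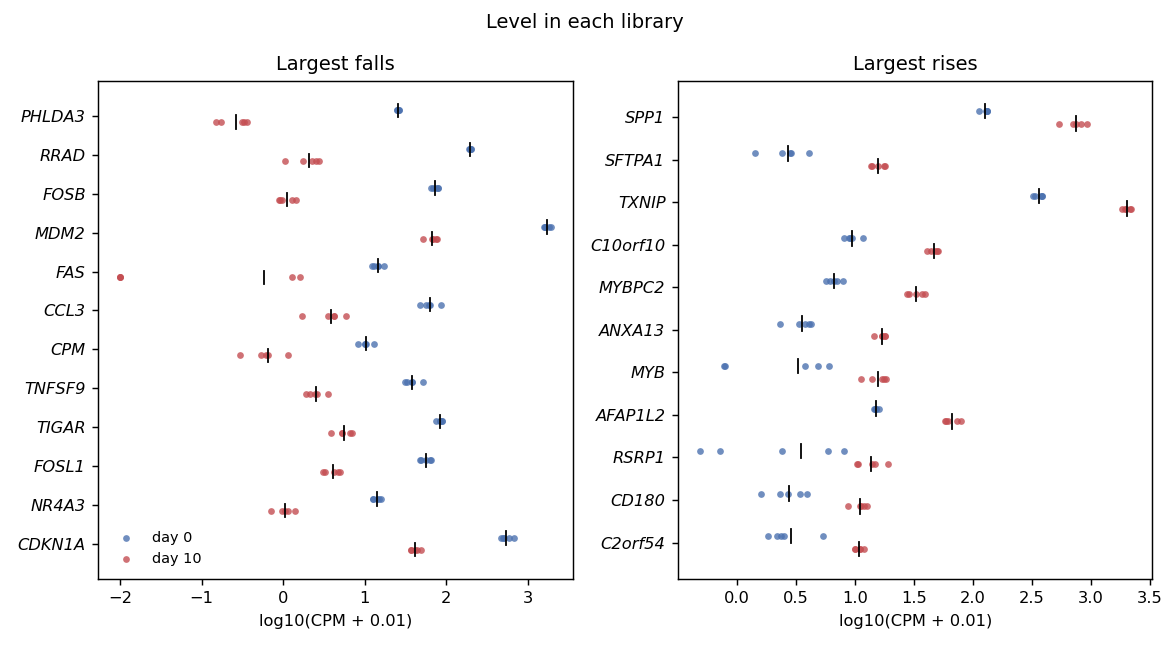
Level of each of the 12 largest falls (left) and 11 of the 12 largest rises (right) in each library as log10(CPM + 0.01), with blue points for the 5 libraries of day 0, red points for the 5 of day 10 and black bars for the means. The leftmost points for FAS are day 10 libraries without a count, and the colors do not overlap in any row because the rule required it.

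Targets of p53 fell almost as a whole. Of 29 measured members, 25 were lower on day 10 and 1 was higher (BTG2) at Q of at most 0.05, beside 15.8% and 16.1% of all entries, and 20 fell more than 2-fold. The median over the members was −1.40 on the log2 scale. MDM2 (chr12:68808177-68845544) had the largest normalised read count of the list on day 0. It stood at 1818, 1633, 1936, 1642 and 1576 CPM in the 5 day 0 libraries and at 67.01, 51.99, 74.8, 76.3 and 68.2 CPM in the 5 day 10 libraries, 1721 ± 150.4 against 67.6 ± 9.63 (SD, n = 5). Every day 10 library lay below every day 0 library, and the log2 fold change was −4.67 ± 0.08 (SE, Q = 1.42e-36), a 25.4-fold lower mean.

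CDKN1A (chr6:36676460-36687337), which encodes the p21 inhibitor of cyclin-dependent kinases, stood at 672, 505, 588, 493 and 471 CPM on day 0 and at 41.2, 49.005, 37.3, 36.98 and 44.3 CPM on day 10 without overlap. The log2 fold change was −3.71 ± 0.10 (SE, Q = 4.68e-29). TIGAR (chr12:4307763-4360028), a fructose-2,6-bisphosphatase that lowers glycolytic flux, fell from 84.04 ± 5.49 to 5.61 ± 1.25 CPM. Among the members with roles in apoptosis, the BH3-only gene BBC3 (chr19:47220822-47232766) fell from 137 ± 8.198 to 28.5 ± 2.38 CPM (SD, n = 5), with a log2 fold change of −2.26 ± 0.09 (SE, Q = 8.33e-23). The death receptor TNFRSF10B fell from 174 ± 16.2 to 42.4 ± 5.705 CPM, PMAIP1 (NOXA) from 68.4 ± 14.4 to 33.1 ± 2.58 CPM, and the nuclease AEN from 234 ± 7.24 to 41.3 ± 4.801 CPM. FAS (chr10:88953813-89029605), another death receptor, held 12.2, 13.2, 14.7, 17.4 and 14.4 CPM on day 0, whereas on day 10 it was without a count in 3 libraries and at 1.62 and 1.28 CPM in the other two.

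Feedback and arrest members followed the same direction. GADD45A fell from 184 to 69.8 CPM, the kinase PLK3 from 104 to 15.5 CPM, and ZMAT3, which binds RNA, from 105 to 49.3 CPM. PLK2 had 45 counts over the day 0 libraries and 0 over those of day 10, at least 16.3-fold lower against a floor of 3 counts over the 5 libraries. Of the DNA repair members, XPC was at a log2 fold change of −0.89 (Q = 6.23e-13) and DDB2 was at 0.29 (Q = 0.162). BAX, the pore-forming executioner, had 24.5 and 19.1 CPM and a log2 fold change of −0.36 ± 0.17 (SE, Q = 0.103), which did not pass the threshold. The exception in direction was BTG2 (chr1:203305491-203309602), an antiproliferative gene that is also an immediate-early gene, with 463, 385, 450.4, 374 and 357 CPM on day 0 and 548, 572, 589, 585 and 523 CPM on day 10 without overlap, and the log2 fold change was 0.47 ± 0.07 (SE, Q = 2.36e-07).

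The gene CPM, which encodes carboxypeptidase M, was also among the 12 largest falls, from 10.3 ± 1.66 to 0.639 ± 0.309 on that scale. It lies at chr12:68842197-68971570 on the strand opposite to MDM2, and the 2 genes share 3348 bases. The library kit marks strand, but whether the authors' count estimation used it is not given in the sources used here, so the part of MDM2 reads in the value of CPM was not tested.

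**Figure D3:**
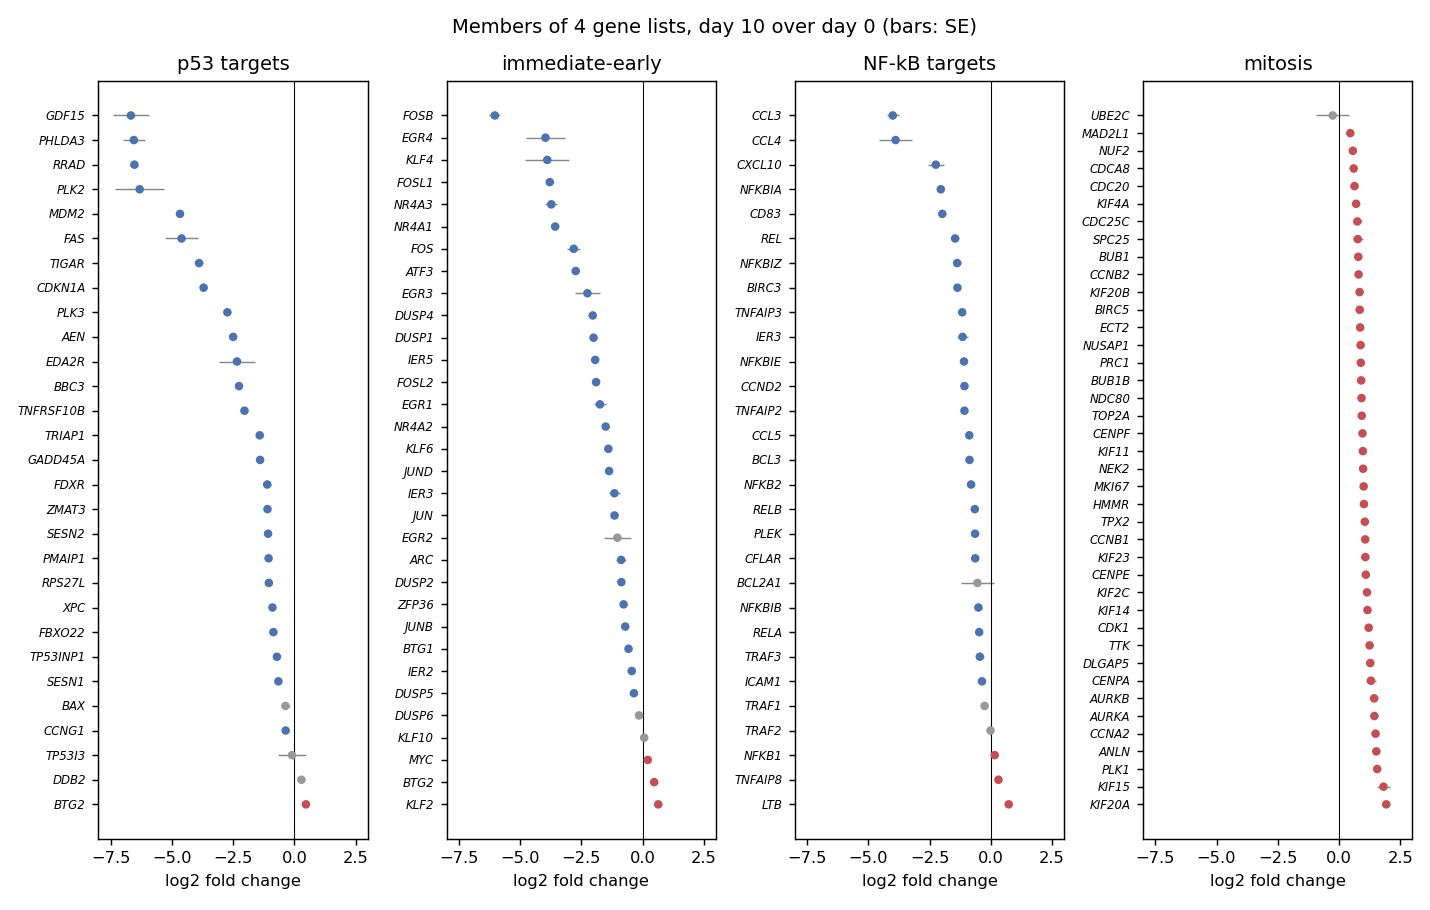
Log2 fold change of day 10 over day 0 with its SE for each member of 4 gene lists (rows are ordered by fold change). Blue and red mark Q of at most 0.05, grey a larger Q, and 25 of 29 p53 targets, 26 of 32 immediate-early genes and 23 NF-κB targets are blue whereas 39 of 40 mitosis genes are red.

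Immediate-early genes were the second group that fell. Of 32 members, 26 were lower and 3 higher on day 10, 19 fell more than 2-fold, and the median log2 fold change was −1.38. FOSB (chr19:45467995-45475179), a subunit of the AP-1 transcription factor, stood at 79.04, 65.4, 78.5, 74.8 and 69.7 CPM on day 0 and at 0.879, 1.28, 0.969, 0.917 and 1.44 CPM on day 10 without overlap, for a log2 fold change of −6.03 ± 0.22 (SE, Q = 1.99e-24). The AP-1 genes did not move alike. FOSL1 (chr11:65892049-65900573) fell from 56.1 ± 8.08 to 4.06 ± 0.882 CPM, FOS from 52.3 ± 4.08 to 7.41 ± 2.195 CPM and FOSL2 from 114 ± 7.79 to 30.4 ± 2.56 CPM. The JUN genes moved less, with log2 fold changes of −1.15 ± 0.13 for JUN, −1.37 ± 0.07 for JUND and −0.71 ± 0.09 for JUNB.

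The orphan nuclear receptors NR4A1 and NR4A3 fell from 260.02 ± 10.96 to 21.9 ± 1.96 CPM and from 14.1 ± 1.39 to 1.05 ± 0.241 CPM. Of the MAP kinase phosphatases, which end ERK, JNK and p38 signaling, DUSP4 fell from 164 ± 9.85 to 39.9 ± 1.67 CPM and DUSP1 from 46.2 ± 6.92 to 11.5 ± 3.22 CPM, whereas DUSP6 had a log2 fold change of −0.14 (Q = 0.289). The members that were higher were KLF2, BTG2 and MYC. MYC, which is translocated in many myelomas and had the largest normalised read count of the list, stood at 914, 1032, 868, 984 and 1107 CPM on day 0 and at 1189, 1233, 1055, 1028 and 1179.6 CPM on day 10 with overlapping libraries, a log2 fold change of 0.21 ± 0.06 (SE, Q = 0.00411).

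Serum- and cAMP-response sequences are the elements through which many immediate-early promoters are induced. In the RefSeq promoter table (GRCh38.p14), the 250 bases before the start of the gene held the cAMP-response element (TGACGTCA, a palindrome) in 2 of 24 members with an entry (8.33%) and in 1.77% of all 27305 promoters, and in 2.95% of the 10083 promoters of genes that passed the filter on low counts, called expressed here. A single form of the serum-response box, CCATATTAG, was found on either strand in 1 member (4.17%) and in 0.0806% of all promoters (0.0496% of expressed ones). Other forms of this box were not searched, so these shares do not tell how many promoters hold one. The stretches are shown for the members that hold a match, 5′ to 3′ on the strand of the gene, with the match in capitals (chr5:172771301-172771332, minus strand for DUSP1, chr19:18281803-18281834, minus strand for JUND, and chr5:138465362-138465394, plus strand for EGR1). The log2 fold changes of these 3 transcripts were −2.003, −1.37 and −1.74.
DUSP1: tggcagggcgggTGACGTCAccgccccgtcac
JUND: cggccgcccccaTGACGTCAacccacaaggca
EGR1: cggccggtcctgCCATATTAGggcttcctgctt

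Transcripts of NF-κB and interferon signaling were lower on day 10 as well. Of 30 NF-κB targets with a count, 23 were lower and 3 higher, 13 fell more than 2-fold, and the median was −0.84. The chemokine CCL3 (chr17:36088256-36090169), which myeloma cells secrete and which promotes osteoclast formation, stood at 86.5, 63.3, 62.03, 55.9 and 47.4 CPM on day 0 and at 3.52, 5.97, 4.199, 1.68 and 4.17 CPM on day 10 without overlap, for a log2 fold change of −4.000 ± 0.24 (SE, Q = 4.68e-17). The feedback inhibitors NFKBIA and TNFAIP3 fell from 152 ± 6.68 to 37.1 ± 3.61 CPM and from 118 ± 5.18 to 52.6 ± 6.76 CPM. BIRC3, which restrains the noncanonical pathway, fell from 255 to 99.2 CPM. The cyclin gene CCND2 (chr12:4269771-4305353), which had the largest normalised read count of this list, stood at 1296, 1366, 1328, 1301 and 1322 CPM on day 0 and at 653, 573, 622, 666 and 625 CPM on day 10 without overlap, for a log2 fold change of −1.08 ± 0.05 (SE, Q = 1.13e-21). The members that were higher were LTB, TNFAIP8 and NFKB1, with log2 fold changes of 0.73, 0.31 and 0.16. TNFSF9 (chr19:6531026-6535924), a costimulatory ligand outside the list, was among the 12 largest falls, from 38.5 ± 8.11 to 2.53 ± 0.629 CPM.

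Of 38 interferon-response genes, 22 were lower and 2 higher, and the median log2 fold change was −0.80. MX1 (chr21:41420020-41470071), an antiviral GTPase, stood at 48.9, 47.6, 52.9, 54.1 and 52.7 CPM on day 0 and at 13.2, 8.81, 7.11, 11.8 and 7.06 CPM on day 10 without overlap, a log2 fold change of −2.42 ± 0.13 (SE, Q = 1.3e-18). The oligoadenylate synthetase genes OAS2 and OAS3 fell from 88.3 ± 3.12 to 52.1 ± 3.6997 CPM and from 5.54 ± 1.39 to 1.32 ± 0.158 CPM. BST2, which tethers virions and is a plasma cell surface antigen, was higher, at 174 ± 11.7 and 249.96 ± 7.84 CPM. Of 23 antigen presentation genes, 12 were lower and 0 higher, with a median of −0.31. HLA-E had a log2 fold change of −0.35 ± 0.06 and CD74, the invariant chain, −0.31 ± 0.06, whereas B2M was at 0.07 ± 0.08 (Q = 0.56). Reads of HLA genes can be divided among near-identical relatives, and values of single HLA genes, HLA-DQA1 included (8.31 and 1.48 CPM), are uncertain for that reason.

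Targets of ATF4 remained below day 0, by smaller amounts. Of 33 members, 24 were lower and 1 was higher, 7 fell more than 2-fold, and the median log2 fold change was −0.39. GDF15, a secreted stress cytokine that is also a p53 target, had 155 counts over the day 0 libraries and 1 over those of day 10. Several other members that fell encode regulators. ATF3, a repressor that is also counted as an immediate-early gene, fell from 108 ± 20.4 to 16.3 ± 0.829 CPM, ATF5 from 84.02 ± 6.71 to 20.7 ± 1.096 CPM, TRIB3 from 135 ± 9.84 to 50.1 ± 6.86 CPM and DDIT3 (CHOP) from 60.8 ± 9.195 to 24.6 ± 2.49 CPM. Of the amino acid transporters, SLC7A5 (chr16:87830023-87869507) stood at 1112, 1067, 944, 1072 and 1048 CPM on day 0 and at 797, 823, 723, 679 and 741 CPM on day 10 without overlap (log2 fold change −0.48 ± 0.06 SE, Q = 4.88e-08), and its partner SLC3A2 fell from 761 ± 52.7 to 417 ± 38.3 CPM. Of the enzymes, asparagine synthetase (ASNS) fell from 622 ± 24.8 to 382 ± 22.1 CPM, whereas MTHFD2 was at a log2 fold change of 0.07 (Q = 0.396). The ATF4 and CEBP element TTGCATCA was found on either strand before the start of 1 of 26 members with an entry (3.85%) and of 0.82% of all promoters (0.426% of expressed ones). The form TGATGNAAN was found for 3 members (11.5%) and 3.18% of all promoters (1.37% of expressed ones). The member with TTGCATCA was CHAC1, at a log2 fold change of 0.29 (Q = 0.137). TGATGNAAN was found for CHAC1 and for ATF3 and ASNS, which were lower.

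The member that rose was DDIT4 (chr10:72273919-72276036), an inhibitor of mTORC1 that stress other than amino acid shortage also induces. It stood at 203, 179.8, 192, 213 and 193 CPM on day 0 and at 504, 546, 494, 508 and 460.03 CPM on day 10 without overlap, for a log2 fold change of 1.36 ± 0.15 (SE, Q = 1.83e-09). Argininosuccinate synthase ASS1 (chr9:130444961-130501274), which makes the precursor of arginine from citrulline and was no member of the list, stood at 2284, 2159, 2031, 2302 and 2332 CPM on day 0 and at 1179.5, 1213, 1046, 1093 and 997 CPM on day 10 without overlap, for a log2 fold change of −1.01 ± 0.08 (SE, Q = 7.53e-14). The 20 tRNA synthetases were divided, with 4 higher and 8 lower (20% and 40%, beside 16.1% and 15.8% of all entries) and a median of −0.09. WARS fell from 347 ± 21.6 to 178 ± 19.5 CPM and SARS from 263 ± 18.6 to 161 ± 11.5 CPM, whereas FARSB was higher, at 155 ± 7.43 and 201 ± 5.28 CPM, and EPRS, which had the largest normalised read count of this list, was lower at 1152 ± 48.7 and 976 ± 50.2 CPM.

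Of 33 genes of ER folding and ER-associated degradation, 21 were lower and 2 higher, with a median of −0.26. SEL1L (chr14:81471547-81533853), the adaptor of the HRD1 ubiquitin ligase, stood at 578, 548, 538, 565 and 527 CPM on day 0 and at 274, 286, 278, 243 and 266 CPM on day 10 without overlap, for a log2 fold change of −1.03 ± 0.06 (SE, Q = 4.7e-18). The chaperone HSPA5 (BiP) fell from 2540.3 ± 169.5 to 1651 ± 99.9 CPM and HYOU1 from 1056 ± 39.2 to 651 ± 15.5 CPM. Oxidoreductases and a lectin chaperone that did not pass the threshold were PDIA6 at 0.08 ± 0.05 (Q = 0.24), P4HB at −0.05 ± 0.06 (Q = 0.648) and CALR at −0.13 ± 0.05 (Q = 0.0521). XBP1 did not pass the threshold (−0.06 ± 0.05, Q = 0.408). The members that were higher were DERL3, from 69.8 ± 7.27 to 102 ± 8.31 CPM, and SEC24D.

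In the BCL2 family, 9 of 18 genes were lower and 0 higher. Both classes of the family were among them. Of the antiapoptotic genes, MCL1 (chr1:150560895-150579738) stood at 1120.5, 1179.8, 1230.3, 1245 and 1225 CPM on day 0 and at 677, 689, 747, 704 and 719.6 CPM on day 10 without overlap (log2 fold change −0.76 ± 0.05 SE, Q = 9.68e-17), BCL2L1 fell from 105 ± 9.56 to 71.2 ± 4.88 CPM, and BCL2 from 568 ± 11.8 to 461 ± 25.9 CPM. Of the BH3-only genes, BCL2L11 (BIM) fell from 219 ± 11.3 to 122 ± 5.797 CPM beside the falls of BBC3 and PMAIP1 given above, whereas BMF and BIK had log2 fold changes of −0.21 (Q = 0.113) and −0.14 (Q = 0.706). The 19 cell cycle inhibitors with a count moved both ways, 7 higher and 9 lower. CDKN1A was the largest fall, and GADD45B and TOB1 fell from 38.9 ± 5.07 to 18.8 ± 1.602 CPM and from 117 ± 4.54 to 49.4 ± 5.72 CPM. CDKN1B, which encodes p27, rose from 48.1 ± 3.42 to 103 ± 4.38 CPM (log2 fold change 1.10 ± 0.07 SE, Q = 8.61e-17), and CCNG2 (chr4:77157207-77433388) rose from 2.26 ± 0.567 to 8.89 ± 1.301 CPM (log2 fold change 1.97 ± 0.19 SE, Q = 2.25e-11).

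**Figure D4:**
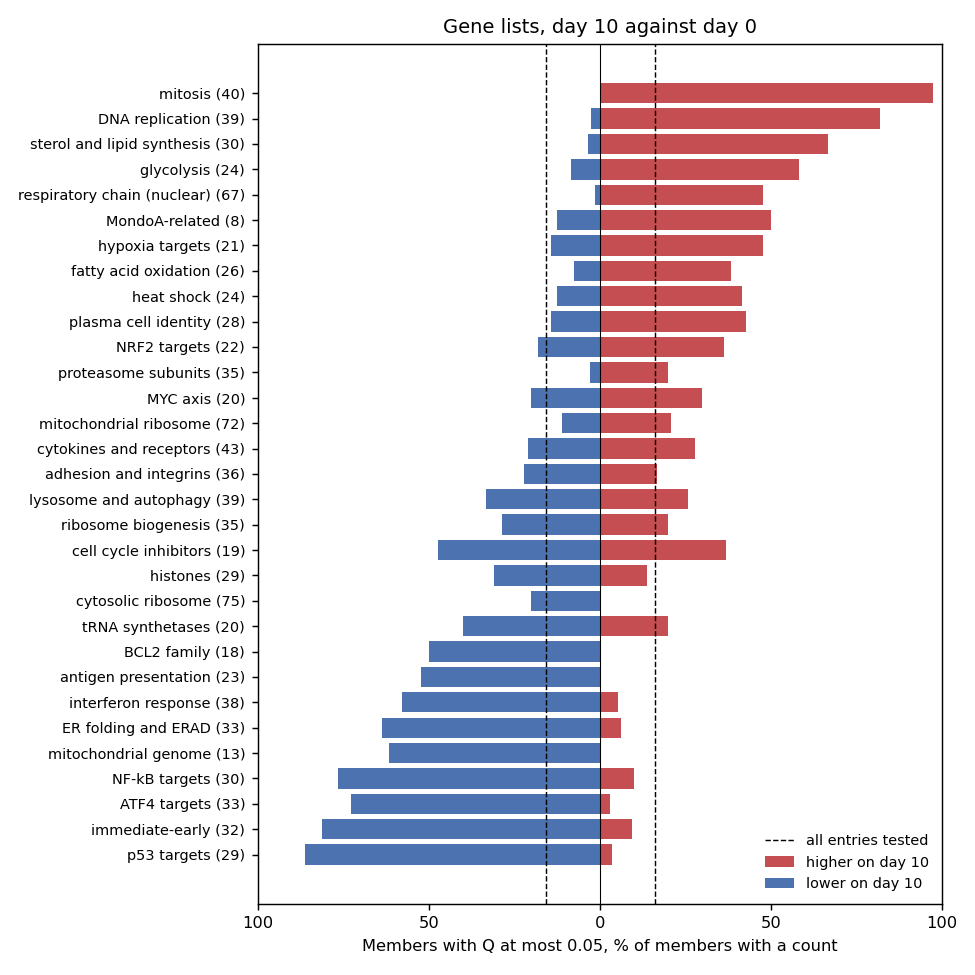
Share of the measured members of each gene list (number in parentheses) with Q of at most 0.05 and a higher (red, to the right) or lower (blue, to the left) level on day 10. Dashed lines mark the shares over all entries, 16.1% higher and 15.8% lower, and the mitosis list at the top and the p53 targets at the bottom hold the most one-sided shares.

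Genes of cell division were higher almost as a whole. Of 40 mitosis genes, 39 were higher and 0 lower, 19 rose more than 2-fold, and the median log2 fold change was 0.98. The member without a call was UBE2C, at 0.681 and 0.57 CPM. KIF20A (chr5:138178719-138187723), a kinesin of the central spindle, stood at 5.77, 4.602, 2.68, 4.41 and 3.08 CPM on day 0 and at 14.95, 17.5, 16.5, 13.9 and 17.2 CPM on day 10 without overlap, for a log2 fold change of 1.93 ± 0.16 (SE, Q = 3.72e-13). The mitotic kinases PLK1 and AURKA rose from 18.4 ± 3.501 to 54.6 ± 7.96 CPM and from 6.47 ± 0.656 to 17.6 ± 3.18 CPM. Cyclins CCNA2 and CCNB1 rose from 10.3 ± 0.801 to 28.9 ± 4.49 CPM and from 24.2 ± 1.28 to 50.96 ± 4.92 CPM. TOP2A (chr17:40388525-40417896), which had the largest normalised read count of the list, stood at 108, 114, 117, 119 and 112 CPM on day 0 and at 206, 227, 218, 199 and 235 CPM on day 10 without overlap (log2 fold change 0.93 ± 0.07 SE, Q = 1.44e-14).

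Promoters of mitotic genes are known for CCAAT boxes, which bind NF-Y, and for the cell cycle genes homology region (CHR), which binds DREAM and MuvB complexes. In the 250 bases before the start, TTTGAA (CHR) was found on either strand in 19 of 35 members with an entry (54.3%) and in 13.6% of all promoters (8.39% of expressed ones), and CCAAT in 27 (77.1%) and 33.04% (35.3% of expressed ones). Stretches around the matches are shown for 4 members that rose, KIF20A (chr5:138179006-138179061, plus strand), PLK1 (chr16:23678804-23678877, plus strand), CCNB1 (chr5:69167051-69167111, plus strand) and MKI67 (chr10:128126431-128126533, minus strand). Positions before the start refer to the start in RefSeq, and for KIF20A the GENCODE interval given above begins upstream of it, so that the stretch lies inside that interval. Capitals mark the matches, of which ATTGG is CCAAT on the other strand. KIF20A and CCNB1 hold a pair of CCAAT matches and no CHR match in the bases searched, PLK1 holds 1 of each, and in MKI67 the last CHR and CCAAT matches overlap.
KIF20A: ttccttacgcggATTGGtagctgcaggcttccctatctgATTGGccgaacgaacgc
PLK1: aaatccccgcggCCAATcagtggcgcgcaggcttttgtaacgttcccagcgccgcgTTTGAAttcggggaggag
CCNB1: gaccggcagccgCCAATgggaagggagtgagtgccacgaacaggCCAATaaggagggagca
MKI67: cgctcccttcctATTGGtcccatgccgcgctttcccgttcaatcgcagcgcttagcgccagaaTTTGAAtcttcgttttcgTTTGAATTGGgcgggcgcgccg

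Of 39 DNA replication genes, 32 were higher and 1 lower, 7 rose more than 2-fold, and the median was 0.68. MCM10 (chr10:13161558-13211110), which activates the replicative helicase, stood at 4.36, 5.396, 4.83, 7.01 and 5.58 CPM on day 0 and at 14.6, 14.9, 17.9, 11.8 and 19.1 CPM on day 10 without overlap (log2 fold change 1.54 ± 0.14 SE, Q = 6.74e-12). MCM3, a subunit of that helicase, rose from 121 ± 5.98 to 210.2 ± 21.9 CPM, and the ribonucleotide reductase genes RRM1 and RRM2 from 36.2 ± 5.43 to 64.2 ± 6.27 CPM and from 25.1 ± 1.91 to 54.4 ± 8.01 CPM. The member that fell was PCNA (chr20:5114953-5126626), the sliding clamp. It stood at 157, 166, 161, 187 and 172 CPM on day 0 and at 80.6, 82.5, 81.6, 92.6 and 91.4 CPM on day 10 without overlap, a log2 fold change of −0.97 ± 0.07 (SE, Q = 7.69e-15). FEN1, which works with the clamp, had a log2 fold change of 0.03 ± 0.07 (Q = 0.786). Entries of replication-dependent histone genes did not follow, with 4 of 29 higher and 9 lower (13.8% and 31.03%, beside 16.1% and 15.8% of all entries). At the same Q, 2 of these histone genes rose more than 2-fold and 0 fell as much. Only 17 of the 29 passed the filter on low counts. HIST1H2AC, which had the largest normalised read count among them, fell from 230.4 ± 32.7 to 118 ± 34.5 CPM, and reads of these genes can be divided among near-identical copies. Whether polyadenylated RNA was selected is not given in the sources used here. How fully the histone messages were captured is therefore not known.

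The E2F site TTTGGCGC was found on either strand before the start of 6 of 34 replication members with an entry (17.6%) and of 0.553% of all promoters (0.922% of expressed ones). It is shown in capitals for DTL (chr1:212035728-212035747, plus strand), a substrate receptor that marks replication proteins for degradation and rose by 1.34 on the log2 scale, and for E2F2 (chr1:23531256-23531287, minus strand), which rose by 1.02.
DTL: gcgtgacgtcagTTTGGCGC
E2F2: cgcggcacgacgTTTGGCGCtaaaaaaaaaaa

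The deregulated transcript with the largest gain in normalised read count was TXNIP (chr1:145992435-145996579), an inhibitor of thioredoxin and of glucose uptake that the glucose sensor MondoA induces. It stood at 327, 376, 338, 385 and 387 CPM on day 0 and at 1947, 1843, 2152, 2188 and 1992 CPM on day 10 without overlap, for a log2 fold change of 2.48 ± 0.09 (SE, Q = 6.03e-24), a 5.58-fold higher mean. Its arrestin-domain relative ARRDC3 rose from 44.7 ± 5.23 to 97.4 ± 8.02 CPM. ARRDC4, which MondoA also induces, moved the other way, from 10.7 ± 1.05 to 4.89 ± 0.654 CPM (log2 fold change −1.12 ± 0.18 SE, Q = 1.85e-06). Of the 8 genes of this list, 4 were higher and 1 lower. The E-box CACGTG, a palindrome, was found before the start of 2 of 7 members with an entry and of 6.49% of all promoters (8.89% of expressed ones). These 2 were ARRDC4, which fell, and MLX, at a log2 fold change of 0.34 (Q = 0.002).

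Genes of sterol and lipid synthesis were higher, 20 of 30 against 1 lower, with a median of 0.51. MSMO1, an enzyme of cholesterol synthesis, rose from 16.5 ± 1.86 to 39.5 ± 5.35 CPM (log2 fold change 1.26 ± 0.09 SE, Q = 3.15e-14). INSIG1, which retains the sterol sensor in the ER, rose from 223 ± 11.1 to 424 ± 35.01 CPM and squalene epoxidase SQLE from 45.9 ± 2.79 to 78.4 ± 9.19 CPM, whereas HMGCS1 was at a log2 fold change of −0.08 (Q = 0.396). Stearoyl-CoA desaturase SCD, which had the largest normalised read count of the list, rose from 776 ± 45.1 to 1167 ± 83.1 CPM. The fatty acid desaturase FADS2 (chr11:61792980-61867354), outside the list, stood at 110.4, 104, 99.2, 117 and 102 CPM on day 0 and at 302, 315, 293, 269 and 338 CPM on day 10 without overlap (log2 fold change 1.51 ± 0.07 SE, Q = 7.32e-20). The sterol element TCACNCCAC was found on either strand before the start of 1 of 22 members with an entry (4.55%) and of 0.875% of all promoters (0.823% of expressed ones). That member was SREBF2, at a log2 fold change of 0.06 (Q = 0.4).

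Genes of energy metabolism were more often higher than lower. Of 24 glycolysis genes, 14 were higher and 2 lower (PFKFB3 and ENO2), none changed more than 2-fold, and the median was 0.23. Pyruvate kinase PKM stood at 1836, 1855, 1635, 1984 and 1953 CPM on day 0 and at 2761, 3052, 2922, 3081 and 3085 CPM on day 10 without overlap (log2 fold change 0.69 ± 0.06 SE, Q = 9.81e-13), and ALDOC rose from 87.6 ± 5.803 to 157 ± 8.98 CPM. Of 21 hypoxia targets, 10 were higher and 3 lower. EGLN3 (chr14:33924227-34462774), a prolyl hydroxylase that marks HIF for degradation, rose from 16.3 ± 1.55 to 53.8 ± 7.29 CPM (log2 fold change 1.72 ± 0.19 SE, Q = 6.09e-10), the repressor BHLHE40 from 41.5 ± 5.47 to 128 ± 11.6 CPM, and ADM from 8.36 ± 0.79 to 25.2 ± 1.49 CPM. NDRG1, which had the largest normalised read count of the list, was at a log2 fold change of −0.08 (Q = 0.615). The hypoxia element ACGTGC was found on either strand before the start of 6 of 18 members with an entry (33.3%) and of 5.85% of all promoters (7.498% of expressed ones). Of these members, BHLHE40, BNIP3 and CA9 were higher, whereas EGLN1, LOX and ANKRD37 did not pass the threshold.

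Of 26 genes of fatty acid oxidation, 10 were higher and 2 lower. The carnitine carrier SLC25A20 rose from 27.1 ± 2.52 to 65.04 ± 4.04 CPM (log2 fold change 1.26 ± 0.08 SE, Q = 4.49e-16), and CPT1A, which admits long-chain fatty acids to mitochondria, from 147 ± 3.09 to 214 ± 9.67 CPM. Nuclear genes of the respiratory chain were higher in 32 of 67 cases and lower in 1, with a median of 0.20 and no change above 2-fold. The lower one was the coding entry of ATP5F1, at 17.4 ± 6.27 and 10.4 ± 3.298 CPM with overlapping libraries, while most counts of this gene were in its processed-transcript entry, at 112 ± 7.41 and 131 ± 5.34 CPM (log2 fold change 0.22, Q = 0.31). SDHA of complex II rose from 169 ± 9.89 to 264 ± 13.9 CPM and ATP5B, the catalytic subunit of ATP synthase, from 697 ± 46.1 to 887 ± 32.03 CPM.

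Transcripts of the mitochondrial genome moved the other way. Of the 13 protein-coding ones, 8 were lower and 0 higher, with a median of −0.40. MT-ND1 (chrM:3307-4262), a subunit of complex I, stood at 6061, 7264, 8184, 6579 and 5506 CPM on day 0 and at 3292, 4017, 2631, 3186 and 3163 CPM on day 10 without overlap, for a log2 fold change of −1.04 ± 0.12 (SE, Q = 1.5e-09). MT-ND2 and MT-CYB were at log2 fold changes of −0.90 ± 0.11 and −0.88 ± 0.10, whereas MT-CO1, which had the largest normalised read count of the list, was at −0.14 ± 0.10 (Q = 0.315). Per library, mitochondrially encoded transcripts made up 7.97% to 11.9% of protein-coding counts on day 0 and 6.26% to 9.001% on day 10, and these ranges overlapped. MT-ATP6 with MT-ATP8 and MT-ND4 with MT-ND4L share bases, and their separate values are uncertain.

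Proteasome subunits, the target of the drug, had small differences from day 0. Of 35 19S and 20S subunits, 7 were higher and 1 lower, 20.000% and 2.86%, near and below the shares of all entries, with a median of 0.04. Without scaling factors 15 were higher, and with single libraries left out 4 to 12. PSMB5, the subunit that carfilzomib binds, stood at 53.4 ± 5.08 and 60.2 ± 5.62 CPM (log2 fold change 0.17 ± 0.07 SE, Q = 0.0515). Heat shock genes were higher in 10 and lower in 3 of 24 cases. CHORDC1 (chr11:90200429-90223077), a cochaperone of HSP90, stood at 18.4, 16.98, 18.4, 18.04 and 21.6 CPM on day 0 and at 40.6, 42.5, 49.4, 50.1 and 47.96 CPM on day 10 without overlap (log2 fold change 1.31 ± 0.10 SE, Q = 1.49e-13), whereas DNAJB1, the HSP40 that serves HSP70, fell from 104 ± 5.43 to 66.6 ± 5.59 CPM and HSP90AB1, with the largest normalised read count of the list, was at 0.06 ± 0.05 (Q = 0.346). The retained-intron entry of CHORDC1 moved the other way, from 16.3 ± 1.93 to 8.47 ± 1.78 CPM (log2 fold change −0.95, Q = 0.0471). HSPA1B was lower (−0.51 ± 0.09), but HSPA1A and HSPA1B are near-identical and their reads can be divided between them.

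A core of the heat shock element, GAANNTTC (a palindrome), was found before the start of 9 of 21 heat shock genes with an entry (42.9%) and of 5.85% of all promoters (4.17% of expressed ones). Of these genes, CHORDC1, HSPB1, HSPB8 and SERPINH1 were higher on day 10, and HSPA1B and DNAJA1 were lower. HSPA1A, HSPA6 and HSPA8 did not pass the threshold. The stretch of CHORDC1 (chr11:90223080-90223121, minus strand) is shown because this gene rose most of those with at least 5 CPM, with 2 matches in capitals.
CHORDC1: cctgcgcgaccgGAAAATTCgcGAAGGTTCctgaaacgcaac

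Targets of NRF2 were divided, with 8 of 22 higher and 4 lower (36.4% and 18.2%, beside 16.1% and 15.8% of all entries). The higher ones were GCLC, GCLM and GSR of glutathione metabolism, TXNRD1, and enzymes of the pentose phosphate pathway, with TKT from 283 ± 9.89 to 451 ± 22.03 CPM and TALDO1 from 151 ± 19.7 to 202 ± 9.44 CPM. Ferritin heavy chain FTH1 and the autophagy receptor SQSTM1 fell from 1239 ± 101 to 644 ± 51.2 CPM and from 731 ± 53.1 to 484 ± 29.8 CPM. The antioxidant element TGACNNNGC was found on either strand before the start of 5 of 16 members with an entry (31.2%) and of 11.03% of all promoters (12.1% of expressed ones). Of these members, GCLM, TXNRD1 and PGD were higher, whereas ME1 and GPX2 did not pass the threshold. FTH1 has many processed pseudogenes, to which reads can be assigned. Of 39 lysosome and autophagy genes, 10 were higher and 13 lower (25.6% and 33.3%). MAP1LC3B fell from 82.4 ± 9.22 to 46.4 ± 4.08 CPM and the protease CTSB rose from 589.9 ± 23.99 to 811 ± 58.4 CPM. Cytosolic ribosomal protein genes were lower in 15 of 75 cases (20%, beside 15.8% of all entries) and higher in 0, with a median of −0.10. The count of lower members was 1 without scaling factors and 2 to 21 with single libraries left out. Mitochondrial ribosomal protein genes held calls in both directions, 15 higher and 8 lower of 72 (20.8% and 11.1%). So did ribosome biogenesis genes, 7 and 10 of 35 (20% and 28.6%), and the MYC axis, 6 and 4 of 20 (30% and 20%). The shares over all entries were 16.1% and 15.8%. Without scaling factors, the count of higher ribosome biogenesis genes was 15.

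Plasma cell identity was checked on its marker genes. Of 28 identity genes, 12 were higher and 4 lower on day 10, with a median of 0.09. SDC1 (CD138) stood at 305 ± 20.01 and 259 ± 15.04 CPM, JCHAIN at 4757 ± 360.1 and 5561 ± 567 CPM, and the transcription factors IRF4 and PRDM1 at log2 fold changes of −0.05 ± 0.06 (Q = 0.644) and −0.16 ± 0.08 (Q = 0.142). Among surface antigens that are drug targets in myeloma, CD38 and TNFRSF17 (BCMA) were higher by 0.43 ± 0.06 and 0.33 ± 0.09 on the log2 scale and SLAMF7 was lower, with a log2 fold change of −0.83 ± 0.11. GPRC5D (chr12:12940575-12952170) stood at 3.38, 3.02, 3.57, 4.01 and 4.24 CPM on day 0 and at 9.498, 9.66, 11.5, 11.8 and 13.95 CPM on day 10 without overlap (log2 fold change 1.63 ± 0.22 SE, Q = 5.95e-08). MZB1, POU2AF1 and MAF were higher by 0.52, 0.44 and 0.19. CD79A rose from 1.28 ± 0.413 to 3.22 ± 0.268 CPM, and CD27 and FCRL5 averaged at most 1.63 CPM on either day. ICOSLG (chr21:44215382-44241446), the ligand of the T cell receptor ICOS, was the largest fall of the list, with 178, 173, 185, 179 and 177 CPM on day 0 and 52.8, 54.5, 50.1, 56.4 and 53.9 CPM on day 10 without overlap (log2 fold change −1.73 ± 0.07 SE, Q = 9.8e-23).

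Markers of other cell types were summed in each library. Over all entries, 16.1% were higher and 15.8% lower by the rule used to count their members. The T and NK cell list ranged from 12.9 to 16.2 CPM on day 0 and from 14.3 to 18.2 CPM on day 10, with 1 of 10 members higher and 0 lower. The myeloid list ranged from 110.3 to 131 CPM on day 0 and from 101 to 121 CPM on day 10, with 2 of 8 members higher and 1 lower. The naive B cell list ranged from 115 to 126 CPM on day 0 and from 86.01 to 101 CPM on day 10, with 1 of 8 members higher and 1 lower. CD68 (119 and 102 CPM) made up most of the myeloid sum and FCER2 (98.3 and 62.1 CPM) most of the naive B cell sum, whereas CD3D, TCL1A, COL3A1 and THY1 were without a count on both days. The stromal list ranged from 0.601 to 1.41 CPM on day 0 and from 0.458 to 1.23 CPM on day 10, with 0 of 6 members higher and 0 lower. The epithelial list ranged from 353 to 413 CPM on day 0 and from 364 to 427 CPM on day 10, with 1 of 6 members higher and 1 lower. KRT18 held 295 and 279.7 CPM of the last. The naive B cell sum was lower in every day 10 library than in every day 0 library, and the part of other cells in the differences was not tested.

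Among 43 cytokines and receptors, 12 were higher and 9 lower (27.9% and 20.9%). IL10RA (chr11:117986370-118003037) stood at 371, 369.9, 349, 378 and 373 CPM on day 0 and at 143, 147, 148, 143 and 116 CPM on day 10 without overlap (log2 fold change −1.40 ± 0.07 SE, Q = 2.68e-19), and the shared cytokine receptor chain IL2RG and IL21R fell from 61.8 ± 1.46 to 34.2 ± 2.39 CPM and from 156 ± 15.4 to 84.2 ± 5.36 CPM. IL32 rose from 7.18 ± 1.26 to 24.3 ± 3.89 CPM, and IL6R, the receptor of a myeloma growth factor, from 78.5 ± 7.25 to 112 ± 4.86 CPM. Of 36 adhesion genes, 6 were higher and 8 lower (16.7% and 22.2%, beside 16.1% and 15.8% of all entries). ITGB5 was higher at 83.3 ± 9.14 and 140.5 ± 9.38 CPM and ICAM1 lower at 268 ± 15.5 and 209 ± 5.17 CPM.

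Other genes with large rises belonged to none of these lists. SPP1 (chr4:87975667-87983532), which encodes the matrix protein osteopontin, stood at 131, 131, 114, 131 and 128 CPM on day 0 and at 539.8, 749.7, 921, 823 and 712 CPM on day 10 without overlap, the largest rise by the rule, with a log2 fold change of 2.56 ± 0.14 (SE, Q = 1.24e-18). The mucin MUC1 (chr1:155185824-155192916) stood at 162, 163, 122, 136 and 152 and 357, 349, 381, 412 and 355 CPM (log2 fold change 1.33 ± 0.10 SE, Q = 8.52e-15), and IGFBP3, which binds insulin-like growth factors, at 159, 177, 156, 195 and 188 and 317, 419, 444, 408 and 388 CPM (log2 fold change 1.18 ± 0.09 SE, Q = 4.2e-14). MYB (chr6:135181308-135219173), a transcription factor of hematopoietic progenitors, rose from 3.27 ± 2.41 to 15.7 ± 2.94 CPM, with day 0 libraries from 0.77 to 6.08 CPM and day 10 libraries from 11.3 to 18.3 CPM. C10orf10 (DEPP1), a FOXO target, rose from 9.48 ± 1.36 to 46.8 ± 3.92 CPM and the adaptor AFAP1L2 from 15.1 ± 0.527 to 66.5 ± 9.94 CPM. MYBPC2, ANXA13, RSRP1, CD180 and C2orf54 rose by 2.30, 2.24, 1.97, 1.96 and 1.94 on the log2 scale, with means of 10.8 to 33.1 CPM on day 10. The coding entry of RSRP1 (3.52 ± 3.35 and 13.8 ± 3.56 CPM) held few of the counts of this gene. Its retained-intron entry was at 83.2 ± 14.2 and 134 ± 15.6 CPM (log2 fold change 0.69, Q = 0.01004). Its nonsense-mediated-decay and processed-transcript entries were at −0.41 (Q = 0.312) and 0.41 (Q = 0.282) on the log2 scale. SFTPA1, at 2.73 ± 0.967 and 15.9 ± 2.04 CPM, shares nearly all of its sequence with SFTPA2 (3.95 ± 0.555 and 14.7 ± 1.66 CPM), and their separate values are uncertain. Genes on overlapping loci are uncertain as well, among those named C10orf10 with RASSF4, RSRP1 with RHD, FADS2 with FADS1, FAS with STAMBPL1, FOSB with ERCC1, DNAJB1 with TECR, and, on the same strand, TIGAR and CCND2 with the locus ENSG00000285901 and EGLN3 with SPTSSA.

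The largest losses in normalised read count among deregulated entries were those of MT-ND1, MDM2, ASS1, CCND2, NAMPT and CDKN1A. NAMPT (chr7:106248298-106285966), the rate-limiting enzyme of the NAD salvage pathway, stood at 1219, 1265, 1283, 1368 and 1294 CPM on day 0 and at 562, 648, 679.9, 657 and 585 CPM on day 10 without overlap, for a log2 fold change of −1.04 ± 0.06 (SE, Q = 2.78e-18). RRAD (chr16:66921685-66925535), a small GTPase, and PHLDA3 (chr1:201464278-201469237), an inhibitor of AKT, both p53 targets, had the largest falls by the rule, with day 10 libraries from 1.06 to 2.75 CPM and from 0.142 to 0.352 CPM.

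The time at which the day 10 level was reached differed between groups, which is given as each day's values side by side since every day shares the day 0 libraries. MDM2 averaged 1721, 73.6, 58.4, 61.3, 65.3, 61.8 and 67.6 CPM on days 0, 1, 2, 4, 6, 8 and 10, so that the whole of its fall was present on day 1. FOSB averaged 73.5, 0.646, 0.295, 1.44, 1.03, 0.967 and 1.097 CPM and CDKN1A 546, 58.3, 43.1, 44.6, 50.7, 41.8 and 41.7 CPM on the same days. TXNIP took longer, with 362, 844, 1199, 1948, 2474, 2030.4 and 2024 CPM. KIF20A, in contrast, averaged 4.11, 10.1, 39.4, 27.5, 18.5, 21.4 and 15.99 CPM and ASS1 2222, 339, 213, 497, 1136, 623 and 1106 CPM, the first coming down from a maximum on day 2 and the second coming up from a minimum on day 2. The medians of log2 ratios of mean CPM to day 0 (with 1 CPM added) over the p53 targets were −1.56, −1.64, −1.32, −1.21, −1.32 and −1.08 on days 1, 2, 4, 6, 8 and 10. Those over the ATF4 targets were −1.57, −1.92, −1.32, −0.63, −1.11 and −0.39.

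**Figure D5:**
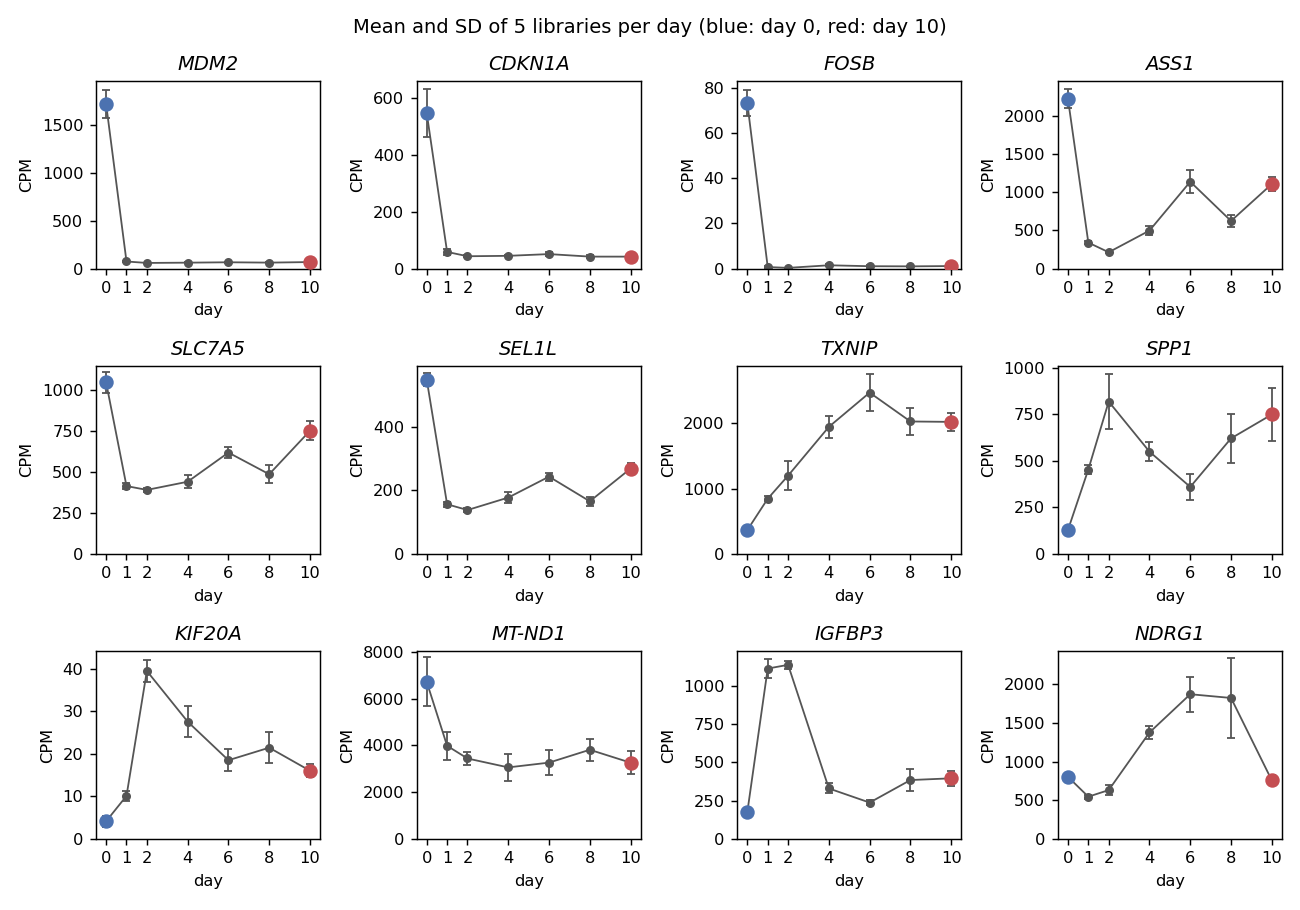
Mean CPM (vertical axes, from 0) with the SD of 5 libraries on each day (horizontal axes) for 12 transcripts, with day 0 in blue and day 10 in red. MDM2, CDKN1A and FOSB are at their low level from day 1, TXNIP stays high from day 4, ASS1, SLC7A5 and SEL1L are higher on days 6 and 10 than on day 8, and NDRG1 is at 802 CPM on day 0 and 756 CPM on day 10.

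The state on day 10 was also compared with that on day 8. Between the 2 days, 122 entries (0.678%) were deregulated, 41 upward and 81 downward, and at Q of at most 0.05 alone 5.08% of entries were higher on day 10 and 4.97% lower. Of the ATF4 targets, 23 of 33 were higher and 1 lower than on day 8, with WARS of the tRNA synthetases at a log2 difference of 0.98 (Q = 7.53e-12) and ASS1 at 0.83 (Q = 2e-10). Of the tRNA synthetases, 14 of 20 were higher and 1 lower. ER folding genes showed the same direction, where 24 of 33 were higher and 1 lower, with SEL1L at 0.70 (Q = 1.33e-11). DNA replication and ribosome biogenesis genes were higher in 13 of 39 and 14 of 35 cases. Mitosis genes did not follow, with 0 of 40 higher and 12 lower than on day 8, nor did immediate-early genes, with 0 of 32 higher and 9 lower. The direction was also downward for sterol synthesis, where 1 of 30 were higher and 15 lower, and for glycolysis, where 0 of 24 were higher and 15 lower. NDRG1 stood at 1823 ± 513 CPM on day 8 and was lower on day 10, at 756 ± 64.96 CPM (−1.27, Q = 1.82e-11). Of the p53 targets, 3 of 29 were higher and 4 lower, and MDM2, CDKN1A, FOSB and TXNIP did not pass the threshold between the 2 days, with Q values of 0.35, 1, 0.874 and 1.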

How the data were processed

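Total RNA of RPMI-8226 cells was sequenced with a strand-specific kit and paired ends. According to the labels and methods, the authors estimated counts with Kallisto 0.44.0 against GENCODE 28 (GRCh38.p12), adjusted them for GC content and, with tximport, for transcript length. The deposited values are whole-number estimated counts per gene symbol and transcript biotype, without scaling for library size, and other biotypes of a symbol are separate entries. All columns matched a sample by its title.

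Days were compared with edgeR 4.0.16 in R 4.3.3 (glmQLFit and glmQLFTest) over all 35 libraries with day as a factor, TMM factors and no covariate. All 17999 of 19665 protein-coding entries with a count were tested, and Q is the Benjamini–Hochberg adjusted p over all of them. SE is the absolute log2 fold change divided by the square root of F. In simulated counts for day 10 against day 0 over 16593 entries, 97 of 100 4-fold changes were called, as were 2 of 16393 unchanged entries. At Q of at most 0.05 alone, 79 of 100 1.5-fold changes passed, as did 7 of the unchanged entries. The changed entries were drawn from those above a minimum expected count, so the shares found do not cover entries with few counts. All simulated days had the day 0 means, except for the changed entries on day 10, with rises and falls equal in number. Far more entries differed in the data, so the shares of unchanged entries called hold for that simpler setting only. Counting intervals and floors cover counting error only.

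The lists and members were chosen with earlier results of these data known. The text names the 12 largest rises and falls among deregulated entries of at least 10 CPM without overlap between libraries, the 6 largest gains and losses in CPM, of each list the largest rise and fall with at least 5 CPM and the member with the largest normalised read count, and plasma cell markers. Other members named beside them were chosen after their values were seen. Some genes that the rule names are not reported here. Gene positions come from GENCODE 44 of the same build (97.5% of symbols matched, older symbols through RefSeq) and promoters from RefSeq (GRCh38.p14). Alternatives were RLE factors, no factors, filterByExpr, a block for the replicate number, a fit to the compared days alone, DESeq2 1.42.0, other fold cutoffs and each library left out. The labels give no sequencing batch, and none was tested.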

Additional observations from a re-analysis of the deposited data

Results flagged for a closer look

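In a group of 5, a library was singled out where its gap to the nearest other exceeded 0.71 of the range (Dixon's test at 95%), which chance gives in about 1 group in 20. Over 72 groups tested, 4 libraries were singled out. SPP1 stood at 114 CPM in replicate 3 of day 0, below the others at 128 to 131 CPM. ANXA13 stood at 14.4 CPM in replicate 1 of day 10, below the others at 17.05 to 18.2 CPM. C2orf54 stood at 5.39 CPM in replicate 5 of day 0, above the others at 1.83 to 2.502 CPM. Retained-intron entries held 5.58% of counts in replicate 2 of day 10, below the other libraries of day 10 at 6.54% to 6.74%.

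Entries of other transcript biotypes, which the comparisons above leave out, also differed between the days. Of 47718 such entries, 903 were deregulated (1.89%), 220 upward and 683 downward. Retained-intron entries held 374 of the falls and 80 of the rises among 8883 tested (5.11%).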

How the results depend on the processing

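Under other scaling, filtering, sample choice, DESeq2, the replicate block and single libraries left out, 391 to 510 entries were deregulated upward and 442 to 636 downward (single libraries left out, 396 to 439 and 561 to 619). With a log2 fold change of at least 2 the counts were 91 and 260, and without a fold cutoff 2895 and 2850. Of 2013 alternative values of named genes, 1984 kept direction and side of the threshold, 21 lost the call, 8 gained it and 0 reversed. Of 1152 alternative list counts, 65 moved by more than 1.5 times, 45 of them with a single library left out, and the cause was not tested.

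Without scaling factors, which moved the median log2 fold change of filtered entries to 0.07, higher members numbered 3 for ATF4 targets, 4 for ER folding, 15 for the proteasome, 15 for ribosome biogenesis, 2 for the cytosolic ribosome and 1 for antigen presentation. Lower members numbered 0 for sterol synthesis, 1 for the cytosolic ribosome, 5 for the mitochondrial ribosome, 0 for myeloid and 0 for epithelial markers. With only the libraries of the days compared, 2 ATF4 targets were higher, and 8 cytosolic and 5 mitochondrial ribosome genes lower. With filterByExpr, 2 replication genes were lower and 12 ribosome biogenesis genes higher. Higher myeloid markers numbered 1 with DESeq2, filterByExpr, the replicate block or only the libraries of the days compared.

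With single libraries left out, higher members ranged over 0 to 1 for the cytosolic ribosome, 1 to 2 for interferon response, 4 to 12 for the proteasome, 6 to 12 for ribosome biogenesis, 1 to 2 for myeloid and 0 to 1 for T and NK cell markers. Lower members ranged over 2 to 21 for the cytosolic ribosome (lowest without replicate 4 of day 0 or replicate 5 of day 10), 0 to 2 for the proteasome, 0 to 1 for the respiratory chain, 0 to 1 for sterol synthesis, 0 to 1 for T and NK cell, 0 to 1 for myeloid, 1 to 2 for naive B cell and 0 to 1 for epithelial markers.

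Replicate numbers did not pair the libraries, as deviations of same-numbered libraries correlated at −0.07 to 0.05 and 1 of 5 libraries correlated best with its own number. With the replicate block, 415 entries were deregulated upward and 578 downward. Entries below 1 CPM on both days held few counts, and of 5455 such entries 3.26% were deregulated, and a difference that was not called there may not have been detectable at this depth.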

Other observations

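Noncoding entries also differed between the days. MIR34AHG, the host transcript of the microRNA miR-34a, went from 54.4 ± 14.3 to 8.41 ± 1.76 CPM (log2 fold change −2.69, Q = 3.76e-12). MIR22HG, the host of miR-22, went from 51.8 ± 8.35 to 4.87 ± 0.77 CPM (log2 fold change −3.41, Q = 3.53e-14). Of 5604 lincRNA entries, 26 were deregulated upward and 36 downward, and of 4660 antisense entries 22 and 42. Among rises, LINC-PINT went from 3.76 ± 1.301 to 10.8 ± 1.14 CPM (log2 fold change 1.52, Q = 0.00233), and the lincRNA AC079466.1 from 456 ± 47.95 to 1413 ± 182 CPM (log2 fold change 1.63, Q = 1.17e-12). These noncoding genes were chosen after their values were seen.

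Retained-intron entries of several genes named above moved in the direction of the coding entry, with RRAD from 11.3 ± 5.59 to 0.0284 ± 0.0635 CPM, CCL3 from 24.1 ± 5.81 to 0.732 ± 1.08 CPM, BBC3 from 29.3 ± 15.5 to 3.64 ± 1.97 CPM, TXNIP from 22.97 ± 4.97 to 145 ± 29.7 CPM and MDM2 from 12.3 ± 6.21 to 0.384 ± 0.195 CPM. In RPLP0 the retained-intron entry fell from 94.9 ± 12.9 to 38.5 ± 7.52 CPM (Q = 9.21e-07), while the coding entry was at a log2 fold change of −0.09 ± 0.06 (Q = 0.278). In NOP56 the retained-intron and coding entries moved in opposite directions, as in CHORDC1 above. The retained-intron entry of NOP56 went from 57.9 ± 11.1 to 19.2 ± 2.804 CPM and the coding entry from 41.4 ± 13.1 to 59.02 ± 4.39 CPM. The processed-transcript entry of NOP56, which held more counts than either, fell from 149 ± 21.1 to 86.6 ± 4.36 CPM (log2 fold change −0.78, Q = 1.58e-05). Its nonsense-mediated-decay entry was at a log2 fold change of 0.61 (Q = 0.324). In NDRG1 the retained-intron entry rose from 34.96 ± 11.3 to 137 ± 33.1 CPM (log2 fold change 1.97, Q = 2.76e-06), while the coding entry was at a log2 fold change of −0.08 ± 0.11 (Q = 0.615). How the estimation divided reads between the entries of a symbol was not tested.

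The median log2 fold change of entries with a mean of at least 1 CPM was between −0.09 (chromosome 20, 313 entries) and 0.06 (chromosome 4, 422 entries) over the chromosomes with at least 20 such entries.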
